A study of Mus musculus with 6 samples.

Results

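The EGF receptor group described here comprised 9 genes picked by their symbols out of 17092 in the deposited table. They were the receptors *Egfr*, *Erbb2* and *Erbb3* and the ligands *Hbegf*, *Areg*, *Ereg*, *Tgfa*, *Btc* and *Nrg1*. All 9 were in the table, and 8 of them passed the filter on low counts that left 13075 genes for testing. *Tgfa* did not pass. RNA-seq was run on cultured MEFs (mouse embryonic fibroblasts, the connective tissue cells that grow out of a minced embryo) from wild-type (WT) mice and from mice with a global knockout of *Aff3ir-ORF2*, one of the protein products of a gene nested within *Aff3*. There were 3 libraries of each genotype, called WT and *Aff3ir-ORF2-/-* replicates 1 to 3. The labels give no treatment, embryo age or sex, and do not say whether libraries came from separate embryos or cultures, so the p-values measure the spread between these libraries only. The nested transcript itself was not analysed here and could not serve to check the genotype of a library.

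The EGF receptor family is a set of receptor tyrosine kinases that pair up on binding a ligand and then switch on the RAS-ERK and PI3K-AKT pathways. *Egfr* binds EGF, TGF-alpha, amphiregulin, HB-EGF, epiregulin and betacellulin, while *Erbb3* binds neuregulins, has little kinase activity of its own and signals mainly as a partner of *Erbb2*, which has no known ligand. The ligands are made as membrane-anchored precursors and released by metalloproteases, and in fibroblasts this system is known for driving growth and migration.

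Each library held between 17435133 and 18252330 counts, so that 3 counts, taken as the detection floor, were 0.161 to 0.174 CPM (read counts relative to the library total, scaled by edgeR's TMM method). All 9 genes were above 3 counts in every library. Fibroblast markers were abundant in both genotypes, and the summed level of 12 of them was 30475 to 30573 CPM in WT and 25435 to 32287 CPM in *Aff3ir-ORF2-/-* MEFs, with 2 of the 12 higher and 1 lower past the thresholds. Markers of macrophages moved with genotype. Of 20 listed genes, 19 were tested and all 19 were higher in *Aff3ir-ORF2-/-* MEFs. The summed level of the list was 22.1 to 25.7 CPM in WT against 1440 to 2450 CPM. *C1qa*, *C1qb* and *Aif1* were at 0 counts in every WT library. Some of the tested genes, among them *C1qa*, *C1qb*, *Tyrobp*, *Trem2* and *Spi1*, passed the filter through the mutant libraries alone. Their being tested already required more counts there. *Lyz2*, *Cd68*, *Csf1r* and *Cd53* had enough WT counts to pass without them. Their log2 fold changes were 6.71, 4.08, 4.31 and 4.95. In bulk RNA, a change in the number of cells of a type and a change in RNA per cell cannot be told apart. Of 13 epithelial markers, 9 were too low to be tested, among them *Epcam*, at 4 counts or fewer in each library, and *Krt5*, at 3 or fewer. Of the 4 tested, *Esrp2* and *Dsp* were higher in *Aff3ir-ORF2-/-* MEFs and 2 were not called. The summed level of the 13 overlapped between genotypes, at 26.3 to 27.6 CPM in WT and 19.2 to 31.7 CPM in *Aff3ir-ORF2-/-* MEFs. Of 5 mast cell markers in the table, none had enough counts to be tested. Of 5 tested endothelial markers, 3 were higher and 1 was lower, where 14.2% and 7.27% of all tested genes were. *Erg*, among the 3 higher, had WT counts of 5, 3 and 7 and passed the filter through the mutant libraries alone. *Pecam1* was at 5 counts or fewer in every library.

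Promoter sequences were found for 5 of the 9 genes by gene ID in RefSeq (GRCm38.p6), each spanning 250 bases before to 50 after a transcription start. The promoter of *Areg*, the gene with the largest fall, is shown beside that of *Btc*, a ligand gene of the same chromosomal cluster, and that of *Egfr*, the receptor of both. *Areg* is at chr5:91139349-91139648 on the plus strand, *Btc* at chr5:91402945-91403244 on the minus strand and *Egfr* at chr11:16751953-16752252 on the plus strand. The sequences run 5′ to 3′, and capitals mark the only match found to any of the motifs searched.
*Areg*: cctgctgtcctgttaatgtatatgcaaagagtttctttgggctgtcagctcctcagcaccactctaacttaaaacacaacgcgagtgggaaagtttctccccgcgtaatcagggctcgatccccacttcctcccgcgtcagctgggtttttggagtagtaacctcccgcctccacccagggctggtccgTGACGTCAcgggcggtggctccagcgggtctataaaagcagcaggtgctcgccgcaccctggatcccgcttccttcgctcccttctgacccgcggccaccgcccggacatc
*Btc*: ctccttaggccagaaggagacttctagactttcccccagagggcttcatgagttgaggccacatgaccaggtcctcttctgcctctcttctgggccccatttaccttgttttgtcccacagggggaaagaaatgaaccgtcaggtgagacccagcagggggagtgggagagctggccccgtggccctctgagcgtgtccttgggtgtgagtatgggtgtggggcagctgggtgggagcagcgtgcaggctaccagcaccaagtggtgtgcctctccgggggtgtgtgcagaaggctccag
*Egfr*: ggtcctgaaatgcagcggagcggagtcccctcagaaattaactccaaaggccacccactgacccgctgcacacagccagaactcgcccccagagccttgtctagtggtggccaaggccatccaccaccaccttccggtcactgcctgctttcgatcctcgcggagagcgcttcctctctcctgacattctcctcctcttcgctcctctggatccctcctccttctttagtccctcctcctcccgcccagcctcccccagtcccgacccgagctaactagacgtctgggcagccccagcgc
The motifs were searched on both strands: the cAMP response element (TGACGTCA), the AP-1 site (TGANTCA), the EGR site (GCGNGGGCG) and the CArG box, which serum response factor binds. The *Areg* promoter held 1 cAMP response element, 61 to 54 bases before the start site, and no match to the other 3. Among 32851 promoter windows of 300 bases, 1.79% held that element, 7.81% the AP-1 site, 5.55% the EGR site and 1.63% the CArG box. The windows of *Btc*, *Egfr*, *Erbb2* and *Tgfa* held none of the 4, which says only that these letters are not in these windows. *Hbegf*, *Ereg*, *Erbb3* and *Nrg1* are named only.

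*Hbegf* and *Areg*, ligands of the EGF receptor, were lower in *Aff3ir-ORF2-/-* MEFs, by 2.42-fold and 3.72-fold. *Erbb3*, the neuregulin receptor, was 1.72-fold higher. *Nrg1*, which encodes neuregulin ligands, passed the p threshold but not the fold threshold. *Egfr*, *Erbb2*, *Ereg* and *Btc* did not pass the test. The test was edgeR's quasi-likelihood test, and a gene was called with a Benjamini-Hochberg adjusted p under 0.05 over all tested genes and a change of at least 1.5-fold. By this rule 1 of the 8 tested members was higher, a call made in 12 of 18 alternative settings, where 14.2% of all tested genes were, and 2 of 8 were lower, where 7.27% of all were. In either direction 3 of 8 members were called, against 21.4% of all tested genes. For 4 of the 8 the CPM ranges of WT and mutant libraries were separate, against 66.0% of all tested genes.

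**Figure D1:**
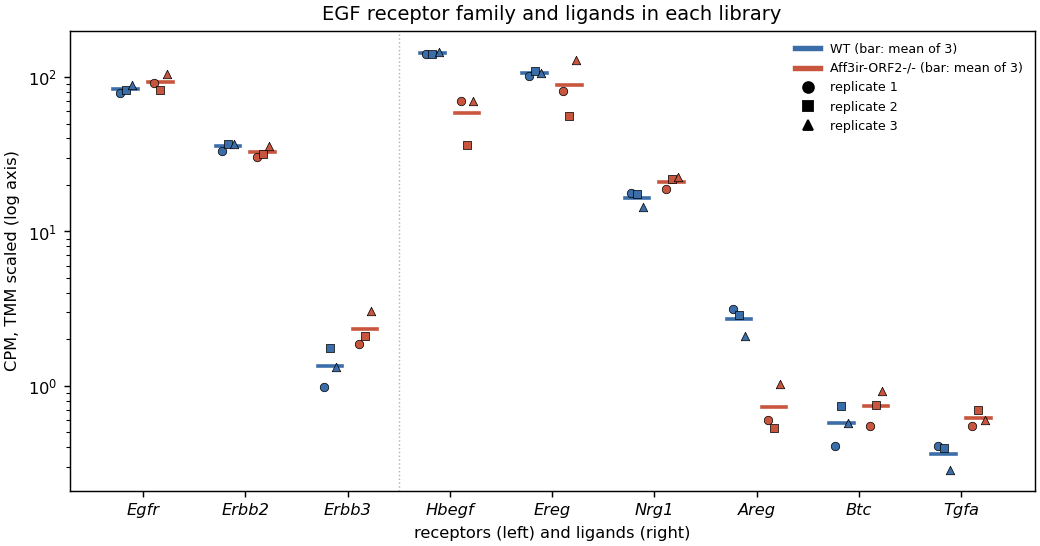
CPM of each of the 9 genes in each library on a log axis, with circles, squares and triangles for replicates 1, 2 and 3 and bars for the mean of 3 libraries. The *Hbegf* and *Areg* points of *Aff3ir-ORF2-/-* MEFs (red) lie below every WT point (blue), while those of *Egfr*, *Erbb2* and *Ereg* overlap.

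Among the receptors, *Egfr* (gene ID 13649), the founding member, had 1360, 1446 and 1550 counts in the WT libraries, in the order of their replicate numbers, and 1660, 1527 and 1910 in the *Aff3ir-ORF2-/-* libraries. Scaled, this was 83.2 ± 5.00 CPM against 92.4 ± 11.1 CPM (SD, n = 3 each). The genotypes overlapped, since *Aff3ir-ORF2-/-* replicate 2 lay at 81.9 CPM, below 2 of the WT libraries. The log2 fold change of *Aff3ir-ORF2-/-* over WT was 0.15 (standard error 0.09, 95% interval -0.05 to 0.35, adjusted p = 0.168), an interval that lies within a 1.5-fold change in either direction. Without *Aff3ir-ORF2-/-* replicate 2 it was 0.23 with an adjusted p of 0.0103, still under the fold threshold. Without *Aff3ir-ORF2-/-* replicate 3 it was 0.05 with an adjusted p of 0.529.

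*Erbb2* (gene ID 13866), the ligandless partner receptor, had WT counts of 575, 649 and 640 and *Aff3ir-ORF2-/-* counts of 551, 589 and 660. Its level was 35.6 ± 1.98 CPM and 32.6 ± 2.98 CPM (SD, n = 3 each), again with overlap. The log2 fold change was -0.13 (standard error 0.08, 95% interval -0.30 to 0.04, adjusted p = 0.181 in the same test). Leaving out *Aff3ir-ORF2-/-* replicate 3 took it to -0.21 with an adjusted p of 0.0335.

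*Erbb3* (gene ID 13867) was the scarcest of the 3 receptors. It had WT counts of 17, 31 and 23 and *Aff3ir-ORF2-/-* counts of 34, 39 and 56, or 1.35 ± 0.390 CPM against 2.34 ± 0.629 CPM (SD, n = 3 each). The groups did not overlap, but the gap was narrow, with the highest WT library at 1.76 CPM and the lowest *Aff3ir-ORF2-/-* library at 1.87 CPM. On the log2 scale the difference was 0.78 (standard error 0.28, 95% interval 0.15 to 1.41, adjusted p = 0.0378). The call was lost without WT replicate 1 (adjusted p = 0.138), WT replicate 3 (0.105) or *Aff3ir-ORF2-/-* replicate 3 (0.134), and with DESeq2 (0.0833). At these counts the size of the difference is poorly fixed, from 0.54 to 1.01 as single libraries were left out.

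*Erbb3* is also a gene of Schwann cells and the neural crest, and markers of those cells were read beside it. Of 9 read here, 7 were tested, and 3 of these, against 14.2% of all tested genes, were higher in *Aff3ir-ORF2-/-* MEFs: *Sox10*, the defining transcription factor of the lineage, with a log2 fold change of 1.16 (adjusted p = 0.0322), the cadherin *Cdh19* with 0.97 (0.0364) and *S100b* with 1.40 (0.0308). *Sox10* had WT counts of 7, 12 and 16 and *Aff3ir-ORF2-/-* counts of 24, 18 and 41. Neither *Sox10* nor *S100b*, with WT counts of 6, 13 and 8, would have passed the filter on its WT libraries alone. Their being tested depended on the mutant libraries, where they were higher. *Cdh19*, with WT counts of 18, 19 and 15, did not depend on them. Of the others, *Mbp* was at -0.05, *Ngfr* at 0.80 (adjusted p = 0.149) and *Pmp22* at 0.25 (adjusted p = 0.00473, under the fold threshold), while *Egr2*, also an immediate-early gene, was lower, at -3.57. The summed level of the list was 143 to 145 CPM in WT and 109 to 149 CPM in *Aff3ir-ORF2-/-* MEFs. *Aff3ir-ORF2-/-* replicate 3, which had the most *Erbb3*, also had the most *Sox10*, *Cdh19* and *Ngfr*, and it held 347 counts of the glial gene *Gfap* against 12 or fewer in each other library. *S100b* was not highest in that library. Among the *Aff3ir-ORF2-/-* libraries, replicate 3 was also highest for all 8 tested members, and the share of all tested genes highest there was not counted. The part of Schwann or neural crest cells in the *Erbb3* difference was not tested.

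**Figure D2:**
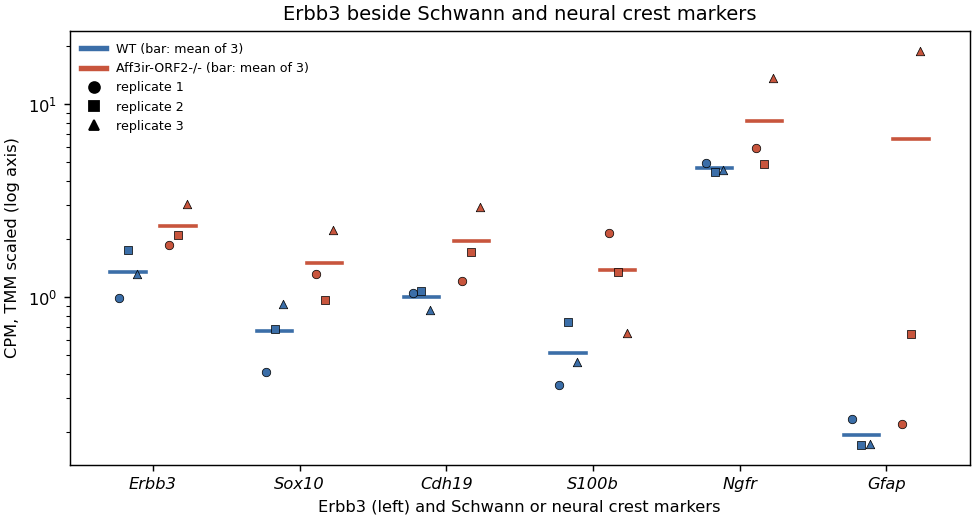
CPM of *Erbb3* and of 5 Schwann or neural crest markers in each library on a log axis, with circles, squares and triangles for replicates 1, 2 and 3 and bars for the mean of 3 libraries. The red triangle, *Aff3ir-ORF2-/-* replicate 3, is the highest point for *Erbb3* at 3.05 CPM and for each marker shown but *S100b*.

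Among the ligands, *Hbegf* (gene ID 15200), heparin-binding EGF-like growth factor, had WT counts of 2444, 2473 and 2534 and *Aff3ir-ORF2-/-* counts of 1274, 673 and 1294. This was 142 ± 2.28 CPM against 58.8 ± 19.7 CPM (SD, n = 3 each). Every *Aff3ir-ORF2-/-* library was below every WT library, and *Aff3ir-ORF2-/-* replicate 2, at 36.1 CPM, was far below the other two of its genotype, at 69.9 and 70.5 CPM. This is a log2 fold change of -1.28 (standard error 0.26, 95% interval -1.92 to -0.63, adjusted p = 0.00854). Without *Aff3ir-ORF2-/-* replicate 2 it was -1.02, and the adjusted p was 1.09e-11. Relative to their mean, the WT libraries varied by 1.60% and the *Aff3ir-ORF2-/-* libraries by 33.5%.

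*Areg* (gene ID 11839), amphiregulin, was a far rarer transcript. It had WT counts of 54, 51 and 37 and *Aff3ir-ORF2-/-* counts of 11, 10 and 19, or 2.72 ± 0.531 CPM against 0.725 ± 0.270 CPM (SD, n = 3 each). The highest *Aff3ir-ORF2-/-* library, replicate 3 at 1.03 CPM, was under the lowest WT library at 2.12 CPM. As a log2 fold change the difference was -1.90 (standard error 0.29, 95% interval -2.55 to -1.24, adjusted p = 4.51e-04). *Areg* would not have passed the filter on its mutant libraries alone. Its being tested depended on the WT libraries, where it was higher. With a filter of at least 10 counts in every library it was still tested, at -1.89 in the same edgeR test (adjusted p = 3.55e-04). Its call held in all 18 alternative settings, with adjusted p values of at most 0.00426 against no change and a log2 fold change between -2.24 and -1.72. *Hbegf* was called in 17 of 18, the exception being a test against a 1.5-fold change (adjusted p = 0.0825). Both genes fell in the libraries in which the macrophage markers rose, and a part of those cells in either difference was not tested.

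*Ereg* (gene ID 13874), epiregulin, had WT counts of 1753, 1911 and 1868 and *Aff3ir-ORF2-/-* counts of 1480, 1046 and 2359. The WT libraries lay close together, at 106 ± 3.65 CPM (SD, n = 3), while *Aff3ir-ORF2-/-* replicates 1, 2 and 3 lay at 81.2, 56.1 and 128 CPM, on both sides of them. The log2 fold change was -0.26 (standard error 0.30, 95% interval -1.01 to 0.50, adjusted p = 0.502), an interval that leaves room for a change of more than 1.5-fold downward. Single libraries decided the value. Without *Aff3ir-ORF2-/-* replicate 3 it was -0.63 and passed both thresholds (adjusted p = 0.0179), and without *Aff3ir-ORF2-/-* replicate 2 it was -0.02 (adjusted p = 0.962).

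*Nrg1* (gene ID 211323), neuregulin 1, had WT counts of 307, 307 and 252 and *Aff3ir-ORF2-/-* counts of 344, 407 and 412. Its level was 16.6 ± 1.86 CPM and 21.1 ± 1.90 CPM (SD, n = 3 each), and the genotypes did not overlap. Its rise of 0.35 in log2 fold (standard error 0.10, 95% interval 0.12 to 0.57, adjusted p = 0.0146) lay below the 1.5-fold threshold. Of all tested genes, 56.8% had an adjusted p under 0.05. Without WT replicate 3 the adjusted p was 0.0634. *Nrg1* has many isoforms that differ in their receptor-binding ends, and gene counts cannot tell them apart.

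*Btc*, betacellulin, and *Tgfa*, transforming growth factor alpha, were at the edge of detection. *Btc* (gene ID 12223) had WT counts of 7, 13 and 10 and *Aff3ir-ORF2-/-* counts of 10, 14 and 17, with overlap between genotypes and a difference of 0.37 in log2 fold (standard error 0.36, 95% interval -0.44 to 1.18, adjusted p = 0.405). *Tgfa* (gene ID 21802) had WT counts of 7, 7 and 5 and *Aff3ir-ORF2-/-* counts of 10, 13 and 11. The *Tgfa* counts did not overlap, and the log2 ratio of mean CPM was 0.76, but the gene was below the filter. When it was tested without the filter its adjusted p was 0.176, and with DESeq2 it was 0.370, so no difference of *Tgfa* was detectable at this depth.

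**Figure D3:**
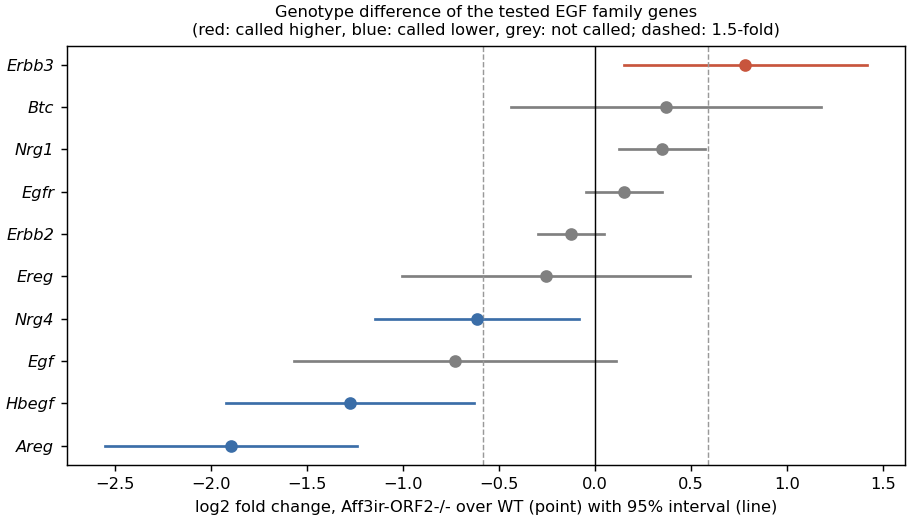
Log2 fold change of *Aff3ir-ORF2-/-* over WT MEFs (point) with its 95% interval (line) for the 8 tested members and for *Egf* and *Nrg4*, with dashed lines at 1.5-fold. *Areg* and *Hbegf* (blue) lie beyond the lower dashed line with their whole intervals, while the interval of *Erbb3* (red) starts at 0.15.

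To set the genes against each other, CPM was divided by the length of the longest GENCODE M21 transcript of each gene in kilobases, a scale on which the order depends on the transcript chosen. In WT MEFs the order of the levels was *Hbegf* at 49.3 ± 0.788, *Ereg* at 25.6 ± 0.885, *Egfr* at 8.15 ± 0.490, *Erbb2* at 7.11 ± 0.395, *Nrg1* at 3.06 ± 0.344, *Areg* at 2.24 ± 0.437, *Erbb3* at 0.225 ± 0.0648, *Btc* at 0.142 ± 0.0414 and *Tgfa* at 0.0802 ± 0.0148 CPM per kilobase (SD, n = 3). Library ranges of these neighbours overlapped only for *Erbb3* and *Btc*. In *Aff3ir-ORF2-/-* MEFs *Ereg* came first, at 21.5 ± 8.90, and *Hbegf* second, at 20.4 ± 6.81 CPM per kilobase (SD, n = 3), with ranges that overlapped. From the third place on the order was as in WT.

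The mix of ligand transcripts is given as a description, chosen after the values were seen and not tested. Of the summed level per kilobase of the 6 ligands, *Hbegf* made up 60.2% to 62.2% in the WT libraries and 50.3%, 40.4% and 40.1% in *Aff3ir-ORF2-/-* replicates 1, 2 and 3. *Ereg* made up 30.9% to 32.6% in the WT libraries and 40.9%, 44.0% and 51.1% in the *Aff3ir-ORF2-/-* libraries. The share of *Nrg1* was 3.30% to 4.12% in WT and 6.81% to 13.0% in *Aff3ir-ORF2-/-* MEFs. None of these shares overlapped between genotypes, and neither did the CPM of 66.0% of all tested genes. The shares of a library are parts of the same sum, so a fall of *Hbegf* alone raises the shares of the other ligands. The level of *Ereg* itself overlapped between genotypes, while that of *Nrg1* did not. The sum itself was 79.7, 80.9 and 80.7 CPM per kilobase in WT and 48.1, 30.9 and 60.9 in *Aff3ir-ORF2-/-* replicates 1, 2 and 3. As a ratio of one gene to the other, *Hbegf* stood at 1.85 to 1.99 times *Ereg* in the WT libraries and at 0.784 to 1.23 times in the *Aff3ir-ORF2-/-* libraries. The lengths cancel out when this ratio is compared between libraries.

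**Figure D4:**
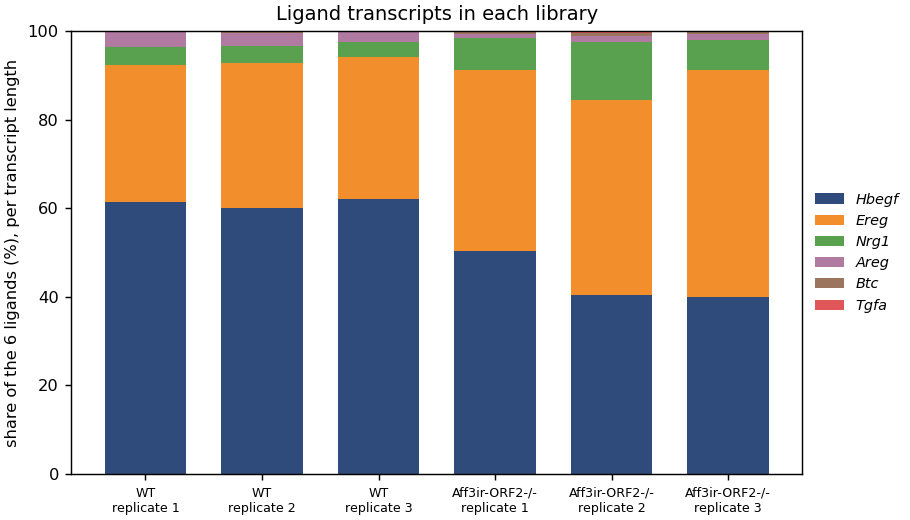
Stacked bars give each ligand's percentage of the summed CPM per kilobase of the 6 ligands in each library. The *Hbegf* part falls from at least 60.2% in WT libraries to at most 50.3% in *Aff3ir-ORF2-/-* libraries, and the *Ereg* part is larger in each *Aff3ir-ORF2-/-* library.

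*Hbegf* and *Ereg*, the ligands with the highest levels, varied more among the *Aff3ir-ORF2-/-* than among the WT libraries, a difference in spread that was not tested. Over the *Aff3ir-ORF2-/-* libraries, replicate 3 had the highest value for all 8 tested members, and the lowest value was in replicate 1 for 4 of them and in replicate 2 for the other 4. The share of all tested genes that were highest in replicate 3 was not counted, so this order cannot be read as a trait of the members. On the log2 CPM scale *Hbegf* in *Aff3ir-ORF2-/-* replicate 2 was 0.64 below the mean of its genotype and *Ereg* 0.58 below, while *Ereg* in replicate 3 was 0.62 above. The largest such deviation of *Hbegf* or *Ereg* in a WT library was 0.06 in size, that of *Ereg* in replicate 1, at -0.06. Macrophage markers also differed among these libraries, summing to 1440, 1992 and 2450 CPM in *Aff3ir-ORF2-/-* replicates 1, 2 and 3, in another order than *Hbegf* and *Ereg*. A part of those cells in the spread of *Hbegf* and *Ereg* was not tested.

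*Ereg*, *Areg*, *Btc* and *Epgn* (epigen) are neighbours on mouse chromosome 5, in the order *Epgn*, *Ereg*, *Areg*, *Btc* with no other protein-coding gene between them in RefSeq. *Ereg* was abundant and did not pass the test, its neighbour *Areg* fell by 1.90 on the log2 scale, and *Btc* had a log2 fold change of 0.37 and did not pass. *Epgn*, with 1, 2 and 1 counts over the WT libraries and 2, 6 and 0 over the others, was too low to be tested.

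Of the other EGF family genes on the list, *Egf*, the namesake ligand, had WT counts of 17, 22 and 10 and *Aff3ir-ORF2-/-* counts of 8, 13 and 10 (log2 fold change -0.73, standard error 0.37, adjusted p = 0.122). *Nrg4*, neuregulin 4, had WT counts of 28, 35 and 36 and *Aff3ir-ORF2-/-* counts of 25, 18 and 25. Its log2 fold change of -0.62 passed both thresholds by a small margin (standard error 0.24, adjusted p = 0.0491), and the call was lost under most alternatives. *Erbb4* was at 2 counts or fewer in each WT library and at 0, 3 and 6 in *Aff3ir-ORF2-/-* MEFs, and *Nrg2* at 6 or fewer in every library. Neither was tested, and *Nrg3* was not analysed here.

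Genes that act on the same route were read from lists. For the shedding and trafficking of ligands, 13 of 13 genes were tested, 3 were higher and 1 was lower past both thresholds, where 14.2% and 7.27% of all tested genes were. The median log2 fold change was 0.19, beside 0.01 over all tested genes. *Adam17*, the main protease that releases HB-EGF, amphiregulin and epiregulin, was at 80.7 ± 0.739 CPM in WT and 81.1 ± 5.46 CPM in *Aff3ir-ORF2-/-* MEFs (SD, n = 3 each; log2 fold change 0.01, standard error 0.06, adjusted p = 0.907); it is named outside the rule for named genes, after its values were seen. Its partner *Rhbdf2* (iRhom2) rose from 6.78 ± 0.495 to 19.3 ± 1.92 CPM (SD, n = 3; log2 fold change 1.51, adjusted p = 4.15e-06), and *Frmd8*, which stabilizes the complex, rose by 0.61 (adjusted p = 1.81e-05). *Rhbdf2* is also expressed in macrophages, and their part in its rise was not tested. *Rhbdl2*, a rhomboid protease, had WT counts of 5, 6 and 5 and *Aff3ir-ORF2-/-* counts of 34, 26 and 32 (log2 fold change 2.42, adjusted p = 1.29e-04). It passed the filter through the mutant libraries alone, and a filter of 10 or more counts in each library left 2 higher genes on the list. *Adam12*, another metalloprotease that can cleave HB-EGF, fell from 387 ± 10.2 to 155 ± 17.3 CPM (SD, n = 3; log2 fold change -1.31, adjusted p = 1.97e-06). *Timp3*, an inhibitor of ADAM17, and *Adam9* were the most abundant of the list. Their log2 fold changes were 0.49 (adjusted p = 0.0554) and 0.33 (0.00109).

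Of 15 tested genes for receptor inhibition and degradation, 1 was higher and 1 lower, where 21.4% of all tested genes were called in either direction, and the median log2 fold change was -0.05. With no filter, without WT replicate 3 or without *Aff3ir-ORF2-/-* replicate 1, 2 were lower. *Errfi1* (MIG6), which binds the EGF receptor kinase and blocks it, had WT counts of 7936, 8331 and 8375 and *Aff3ir-ORF2-/-* counts of 3205, 2653 and 3578. Its level fell from 471 ± 9.83 to 171 ± 26.6 CPM (SD, n = 3), which is -1.46 as log2 fold change (standard error 0.11, adjusted p = 2.69e-05). *Ptprj*, a receptor phosphatase that acts on EGFR, rose from WT counts of 252, 264 and 269 to 511, 639 and 656 (log2 fold change 1.12, adjusted p = 1.26e-05), and it too is expressed by macrophages. The ubiquitin ligase gene *Cbl*, which marks EGFR for degradation, was at 0.13 (adjusted p = 0.0312). Its relative *Cblb*, chosen after its values were seen, was at -0.57 (adjusted p = 1.16e-05), just under the fold threshold, with 89.8 ± 3.43 CPM in WT and 60.4 ± 1.07 CPM in *Aff3ir-ORF2-/-* MEFs (SD, n = 3 each).

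Of the adaptors and relay kinases, all 28 listed genes were tested, 3 were higher and none was lower past both thresholds, against 14.2% and 7.27% of all tested genes, and the median log2 fold change was 0.13. At 2-fold, and in a test against a 1.5-fold change, 1 was higher. Without the fold threshold, 14 of the 28 had an adjusted p under 0.05, where 56.8% of all tested genes did. On the log2 fold scale *Pik3r1*, the regulatory subunit of PI3K, was at 1.07 (adjusted p = 4.00e-05), *Stat3* at 0.63 (5.95e-06) and the adaptor *Nck1* at 0.60 (9.81e-05). The most abundant members, *Akt1* and *Ptpn11* (SHP2), were at 0.07 (adjusted p = 0.327) and 0.05 (0.394).

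A list of 10 genes commonly read as output of the MAPK pathway had 6 lower and 1 higher past both thresholds, against 7.27% and 14.2% of all tested genes, and a median log2 fold change of -0.75. The count depended on the threshold: 1 was lower and 0 were higher at 2-fold, and 2 were lower and 0 higher in a test against a 1.5-fold change. *Dusp6*, the ERK phosphatase, fell from 77.5 ± 2.84 to 41.0 ± 6.18 CPM (SD, n = 3; log2 fold change -0.92, adjusted p = 1.10e-04). The feedback inhibitor *Spry2*, the ETS factor *Etv4* and the phosphatase *Dusp4* had log2 fold changes of -0.75, -0.76 and -0.84 (adjusted p = 2.88e-04, 6.85e-04 and 0.00478). *Phlda1*, a PH domain protein, and *Spry4* made up the 6, at -1.60 and -0.91, and are named because the count needs them. *Ccnd1*, cyclin D1, was at -0.37 (adjusted p = 0.00891), under the fold threshold, and *Epha4*, an ephrin receptor, was higher at 0.74 (1.62e-04). The pattern of early response genes of this pathway was known from these libraries when the list was written, so it is no independent evidence.

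**Figure D5:**
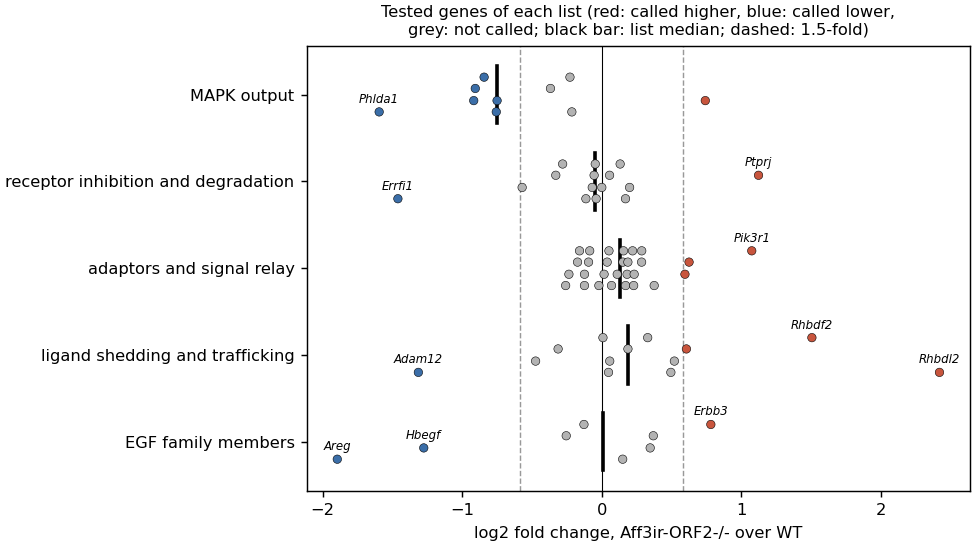
Each dot is a tested gene at its log2 fold change of *Aff3ir-ORF2-/-* over WT MEFs, for the members and the lists of shedding, adaptor, receptor inhibition and MAPK output genes, with black bars at the list medians and dashed lines at 1.5-fold. The MAPK output list is centred at -0.75, while the other 4 sets shown have medians between -0.05 and 0.19.

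The genes whose pattern over the 6 libraries was most like that of a member were found by the root mean square difference of log2 CPM centred on each gene's mean. For *Egfr* these were *Kctd12*, *Pawr* and *Pla2g4a* (differences of 0.04, 0.04 and 0.05). *Pitx1*, *Trim65* and *Col11a2* came closest to *Erbb3* (0.09, 0.14 and 0.16). For *Areg* the nearest were *Fyb2*, *Shank2* and the transcription factor *Klf5* (0.20, 0.21 and 0.23), with log2 fold changes of -1.93, -1.76 and -1.55. The 6 libraries hold only 2 genotypes, so a like difference between genotypes is part of this measure.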

How the data were processed

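RNA of WT and *Aff3ir-ORF2-/-* MEFs was sequenced in 3 libraries per genotype, and the reads were filtered with SOAPnuke by a sequencing company. The values the authors deposited are estimated counts without normalization, 1 per gene and library. Fractional values made up 10.6% to 11.3% per library. The submitters' processing notes list the genome build mm8. The aligner, the counting tool and the annotation are not given in the sources used here. Estimated counts were rounded.

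Low genes were removed by the filterByExpr function (count of at least 10, total of at least 15). The rest were scaled by TMM and tested in edgeR 4.0.16 with glmQLFit (robust prior) and glmQLFTest without covariates over all 6 libraries, with Benjamini-Hochberg adjustment. The standard error was the log2 fold change over the square root of F, and 95% intervals used the degrees of freedom of the test. The functions were tested on simulated data. R 4.3.3, limma 3.58.1, DESeq2 1.42.0, Python 3.11.15 and matplotlib 3.10.9 were used. Of the IDs in the table, 16558 had a transcript length in GENCODE M21. RefSeq tables of GRCm38.p6 gave promoters and gene neighbours.

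The members and the lists were chosen with earlier results of these data known. The genes named are the members, the other family genes, up to 4 called genes per list by adjusted p and the 2 most abundant, the 3 genes most like *Egfr*, *Erbb3* and *Areg* with a mean log2 CPM of at least 1, and cell type markers. Some markers are not reported here. Alternatives were other scalings, filters, tools and thresholds, the replicate number as a block, each library left out and, chosen after seeing the data, no robust prior. Counts and the detection floor of 3 carry counting error only.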

Additional observations from a re-analysis of the deposited data

How the results depend on the processing

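Every member kept the direction of its log2 fold change in all alternatives that gave it a value. With DESeq2, a 2-fold threshold or a test against a 1.5-fold change, *Erbb3* stayed at 0.78 without passing, so that 0 members were higher, and the last of these settings also left *Hbegf* uncalled at -1.28, with 1 member lower. As single libraries were left out, *Erbb3* ranged from 0.54 to 1.01, *Ereg* from -0.63 (past both thresholds) to -0.016, the members called higher from 0 to 1 and those called lower from 2 to 3. A 2-fold threshold gave 1096 higher and 317 lower genes over the whole table, and the test against 1.5-fold gave 1074 and 410, against 1851 and 951. Under these 2 settings, in that order, the adaptor list had 1 and 1 genes higher, and the MAPK output list had 0 and 0 higher and 1 and 2 lower. *Nrg4* made up the 1 lower gene of the other EGF family genes, which became 0 with upper quartile scaling, total counts, no filter, DESeq2, limma voom, the replicate block, a 2-fold threshold, the test against 1.5-fold, and each library left out (0 to 0). The receptor inhibition list had 2 lower genes without the filter and 1 to 2 as libraries were left out. The causes of these moves were not tested.

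Same-numbered libraries of the genotypes did not deviate together (correlations of deviations 0.0386, 0.0424 and 0.0145), so the replicate number was read as a name only, although each WT library correlated best with its own number. With the replicate block, 1854 genes were higher and 954 lower, 1 member was higher and 2 were lower, the MAPK output list had 5 lower genes against 6, and *Hbegf*, *Areg* and *Erbb3* were at -1.32, -1.89 and 0.78. *Tgfa*, *Btc*, *Erbb3* and *Areg* each had under 60 counts in every library, and the effect of depth on them was not tested.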
